A study of Mus musculus with 16 samples.

Results

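Ribosome biogenesis genes encode the proteins that transcribe, process and modify ribosomal RNA (rRNA) and assemble it into ribosomal subunits. The 49 genes described here were taken by name from a list made with earlier results of these data known, and were read in all 16 samples of the series. Together they were 49 of 46078 genes in the deposited count table and 49 of the 13661 genes with enough counts to be tested. All 49 passed that filter on low counts.

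The study sorted mouse hematopoietic stem cells (HSCs) by MAC-1, an integrin of myeloid cells whose alpha chain (CD11b) is encoded by Itgam, and sequenced their RNA in bulk. All samples are labelled B6.SJL and wild type. Steady-state (SS) HSCs came from untreated mice and were split into MAC-1- (n = 3) and MAC-1low (n = 3) samples. The 4wk HSCs were taken 4 weeks after transplantation of 8000 LSK (lineage negative, Sca1+, c-Kit+) cells into recipients irradiated with 900 cGy, and were split into MAC-1- (n = 3), MAC-1low (n = 4) and MAC-1+ (n = 3) samples. No MAC-1+ population at steady state was analysed here. Every sample was a sort of LSK cells that were CD48- and CD150+ with a lineage gate that removed Gr+ cells. The labels give no separate animals for the replicates and no donor marker for these sorts, so p-values measure the spread between these samples, which may be technical. They do not state the age of the mice.

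Making ribosomes begins in the nucleolus, where RNA polymerase I transcribes one long rRNA precursor. Small nucleolar ribonucleoproteins (snoRNPs) then guide its chemical modification, with box C/D particles directing methylation and box H/ACA particles directing pseudouridylation, while assembly factors cut, fold and export the small and large subunits. HSCs are known for a low rate of protein synthesis, and the demand for new ribosomes rises when cells grow and divide.

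Total counts ran from 13781278 to 28580658 per sample with a median of 18817813, and mitochondrial genes held 3.96% to 9.62% of them. Levels are given as CPM, counts scaled to the library's total after TMM adjustment of that total. A count of 0 allows up to 0.105 to 0.218 CPM of the unadjusted total in these samples, a limit that covers counting error only. Itgam had 175, 478 and 96 counts in the 4wk MAC-1+ samples, 6, 95, 21 and 3 in 4wk MAC-1low, 0, 47 and 0 in 4wk MAC-1-, 30, 16 and 15 in SS MAC-1low, and 0, 5 and 2 in SS MAC-1-. In CPM the 4wk MAC-1+ samples read 8.31, 30 and 3.80, and 4wk MAC-1low replicate 2, at 4.36, was above the lowest of them. The second 4wk MAC-1- sample held more Itgam counts than 3 of the 4 4wk MAC-1low samples. Itgb2, which encodes the other MAC-1 chain (CD18), went the other way. It had 8.55, 15.2 and 15.9 CPM in 4wk MAC-1+ and 31.4, 18.8 and 30.3 CPM in 4wk MAC-1- samples, without overlap. The difference did not pass the test described below (log2 fold change -1.02, SE 1.39, edgeR adjusted p = 0.864). The 8 HSC markers, among them Kit, Slamf1 and Mecom, had counts in every sample, and their summed level ran from 690.5 to 890.0 CPM in 4wk MAC-1- and from 2271 to 3457 CPM in 4wk MAC-1+ samples. The fitted level was higher in 4wk MAC-1+ for 7 of the 8. Slamf1 was lower, with means of 71.2 CPM in 4wk MAC-1- and 45.7 CPM in 4wk MAC-1+. Ly6a (238 and 1060 CPM) and Hlf (67 and 668 CPM) made up much of the rise in the sum. Markers of 4 other cell types also separated the 4wk MAC-1- from the 4wk MAC-1+ libraries. The 7 megakaryocyte genes summed to 4261 to 6752 CPM in 4wk MAC-1- but 156.3 to 203.6 CPM in 4wk MAC-1+, and none of them was at 0 in 8 or more samples. The 9 neutrophil genes summed to 256.9, 1137 and 7655 CPM in 4wk MAC-1+ replicates 1, 2 and 3 against 89.9 to 151.7 CPM in 4wk MAC-1-, with 4 of the 9 at 0 in 8 or more samples. The 7 NK and T cell genes summed to 322.9, 375.9 and 642.0 CPM in 4wk MAC-1- and to 16, 43.84 and 175.9 CPM in 4wk MAC-1+, nearly all of it Nkg7, and Ncr1 was at 0 in every sample. The 8 erythroblast genes summed to 24.35, 32.56 and 23.79 CPM in 4wk MAC-1- and to 190.3, 91.33 and 183.8 CPM in 4wk MAC-1+, and Alas2 was at 0 in every sample. Of the monocyte, NK and T, B and erythroblast lists, 7 of 8, 6 of 7, 5 of 7 and 4 of 8 genes were at 0 in 8 or more samples. The part of these other cells in the results below was not tested, and in bulk samples fewer cells of a type and less RNA per cell cannot be told apart.

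Summed over the 49 genes, the level was highest in 4wk MAC-1- and lowest in 4wk MAC-1+ HSCs. The 4wk MAC-1- samples summed to 13477, 12805 and 12029 CPM, the 4wk MAC-1low samples to 9820, 8227, 8772 and 9612 CPM, and the 4wk MAC-1+ samples to 8865, 5282 and 5943 CPM. At steady state the sums were 8909, 9064 and 9452 CPM in MAC-1- and 8680, 8083 and 7888 CPM in MAC-1low samples. The 3 4wk MAC-1- samples therefore lay above all 13 others, and 2 of the 3 4wk MAC-1+ samples lay below all others, whereas 4wk MAC-1+ replicate 1 fell among the 4wk MAC-1low and steady-state samples. Npm1 and Ncl, both abundant, did not make this pattern alone. Without these genes the sums ran from 7030 to 7628 CPM in 4wk MAC-1- and from 3181 to 4704 CPM in 4wk MAC-1+.

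**Figure D1:**
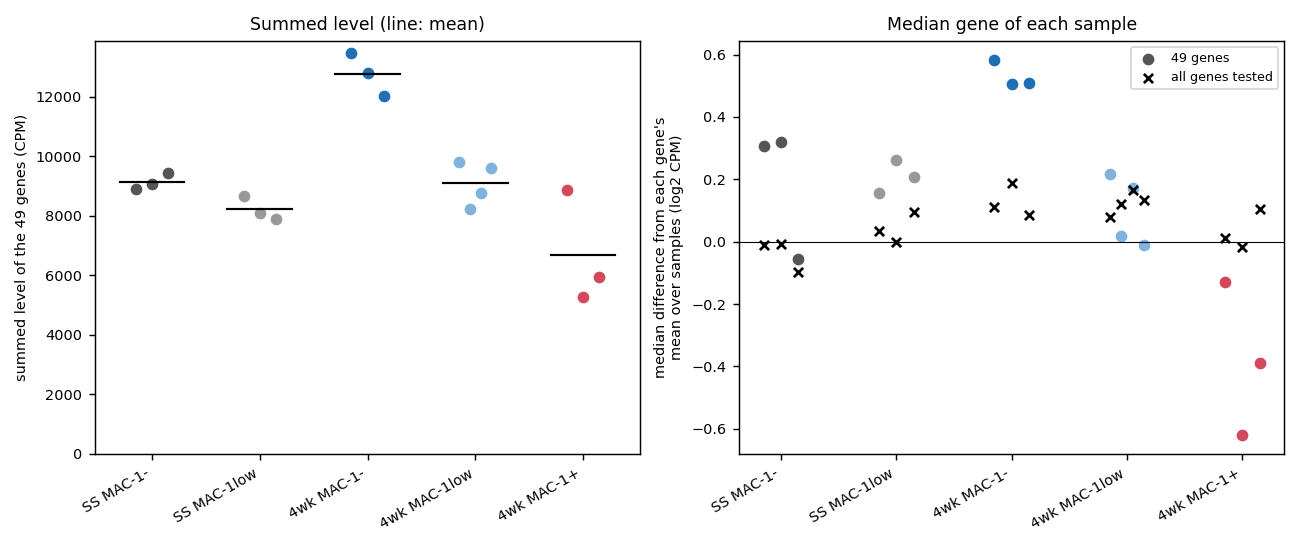
Levels of the 49 genes by sample, as their summed CPM (left, with a line at each population's mean) and as the median difference of the genes from their own mean over all 16 samples in log2 CPM (right, circles, with crosses for all 13661 genes tested). The 4wk MAC-1- samples sit highest in both panels, at 12029 to 13477 CPM and at 0.50 to 0.58, and the crosses stay between -0.10 and 0.19.

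The same order was seen gene by gene. By mean CPM, 26 of the 49 genes (53.1%) were highest in 4wk MAC-1-, against 17.4% of all genes tested, and 24 (49%) were lowest in 4wk MAC-1+, against 22.7% of all genes tested. The mean fell at both steps, from 4wk MAC-1- to MAC-1low and from MAC-1low to MAC-1+, in 30 of 49 genes (61.2%) and in 23.0% of all genes tested. At the other end, Utp18 was the 1 gene with its highest mean in 4wk MAC-1+ (128 CPM), and Noc3l, of a complex that moves large-subunit precursors, the 1 gene with its lowest mean in 4wk MAC-1- (8.78 CPM). These shares describe means and were not tested.

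Compared per kilobase of exon, the RNA of a few genes dominated. Nop10 had the highest mean over the 16 samples (1743 CPM per kb), followed by Npm1 (1189), Nhp2 (343.2), Brix1 (191.1) and Imp3 (110.1). The length used joined all annotated exons of a gene and can exceed that of its main transcript, which lowers the value. In CPM alone the order was Npm1 (3169), Nop10 (1933), Brix1 (521.8), Ncl (467.6) and Nhp2 (393.3). Precision followed abundance. The replicate SD of log2 CPM had a median of 0.40 over the 17 genes above 100 CPM, 0.79 over the 9 genes of 30 to 100 CPM and 1.29 over the 23 genes below 30 CPM. Its median over all 49 genes was 0.80, against 1.45 over all genes tested. Of the 49 genes, 3 had a sample at 0, namely Rrp9, Rrp12 and Bysl, which act in small-subunit processing.

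**Figure D2:**
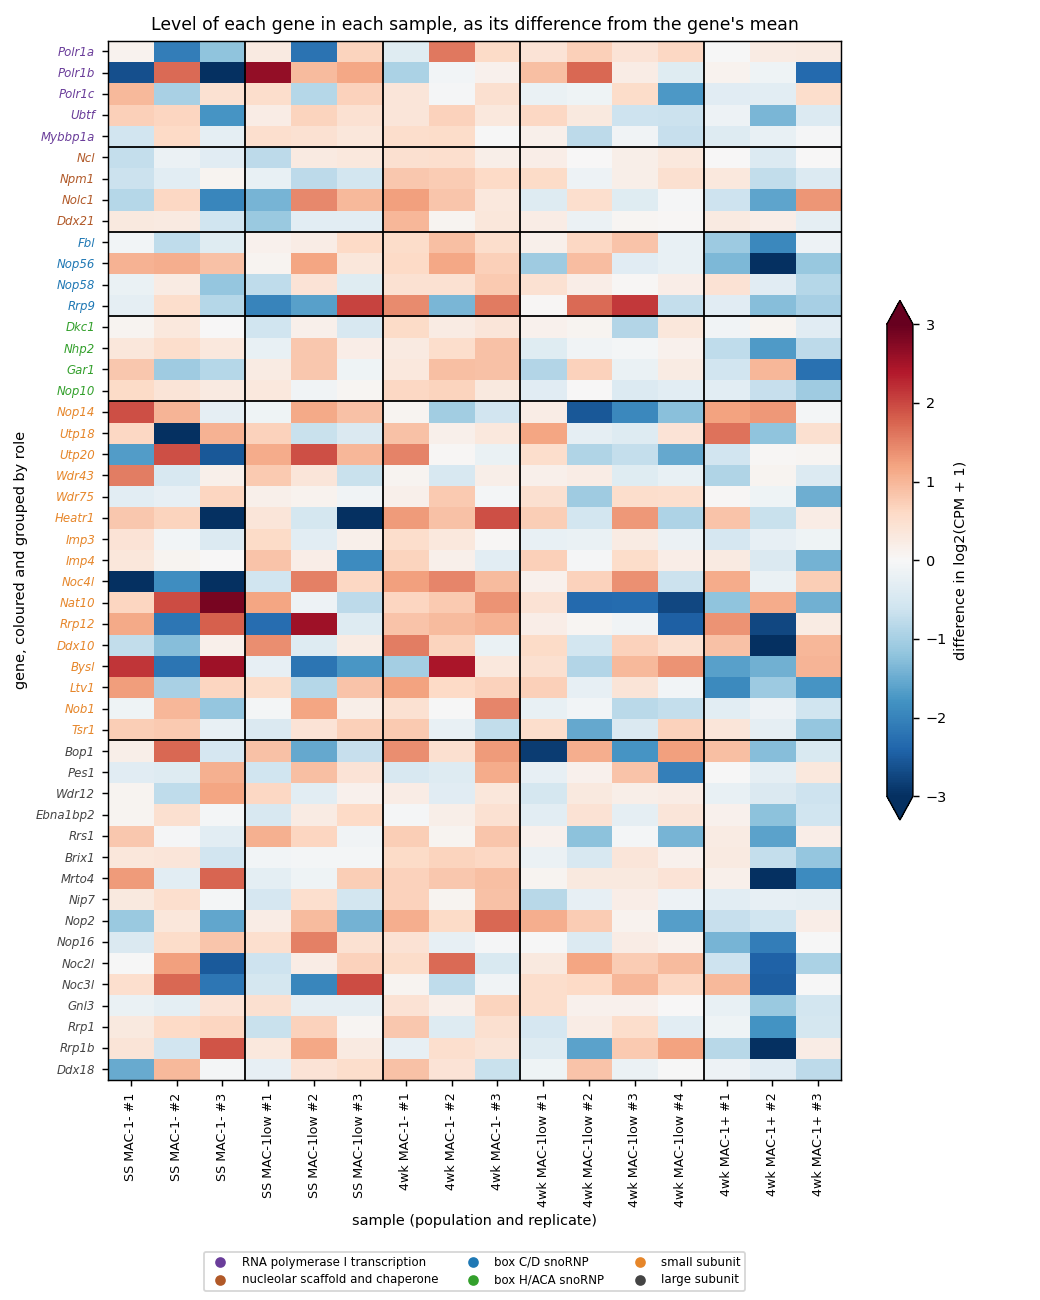
Each gene's level in each sample, as the difference in log2(CPM + 1) from that gene's mean over the 16 samples (colour scale from -3 to 3), with genes grouped by role and samples by population. The columns of 4wk MAC-1- are mostly red and those of 4wk MAC-1+ replicates 2 and 3 mostly blue, and single dark cells, such as Noc4l in SS MAC-1- replicate 1 (0.44 CPM) and Mrto4 in 4wk MAC-1+ replicate 2 (0.188 CPM), mark samples far from a gene's mean.

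The DNA just before the start of the genes is shown for 5 of the 6 whose difference between 4wk MAC-1+ and 4wk MAC-1- passed the test below and for those that held both sequence motifs searched. Promoters were read from RefSeq (mouse GRCm38.p6), which had an entry for 44 of the 49 genes and none used here for Npm1, the sixth, and the 250 bases before the start were searched on both strands. The E-box CACGTG, the sequence MYC family factors bind, was before 3 of 44 genes (6.82%), namely Imp4, Nop2 and Utp18. Counting a match at any listed start, it was before 9.98% of genes tested with an entry and 6.86% of all 27025 genes with an entry. With 1 start per gene these shares were 8.53% and 6.05%, and that of the 44 was again 6.82%. CCGGAAG, a core of ETS family sites that does not overlap the E-box letters, was before 11 of 44 genes (25.0%) by either count. For genes tested and for all genes with an entry its shares were 16.3% and 7.83%, or 14.5% and 7.05% with 1 start per gene. This ETS core lay before Brix1, Ddx10, Gar1, Heatr1, Ltv1, Nhp2, Nip7, Nolc1, Nop2, Polr1c and Utp18. The sequences below are 120 bases each, 5′ to 3′ on the gene's strand, and end before the start of the gene. Capitals mark a match to either motif on either strand, and a match is a description of the letters only.
Nop10, chr2:112261806-112261925, plus strand: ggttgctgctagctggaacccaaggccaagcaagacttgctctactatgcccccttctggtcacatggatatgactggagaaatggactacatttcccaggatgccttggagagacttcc
Nhp2, chr11:51619615-51619734, plus strand: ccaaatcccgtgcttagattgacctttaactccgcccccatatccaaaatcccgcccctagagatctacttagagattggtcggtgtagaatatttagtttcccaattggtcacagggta
Ltv1, chr10:13193169-13193288, minus strand: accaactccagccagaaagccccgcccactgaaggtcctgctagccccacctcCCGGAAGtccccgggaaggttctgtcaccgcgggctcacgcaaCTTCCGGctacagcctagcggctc
Nop56, chr2:130274292-130274411, plus strand: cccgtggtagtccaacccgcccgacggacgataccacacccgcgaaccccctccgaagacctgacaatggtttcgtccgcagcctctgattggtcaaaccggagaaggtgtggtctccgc
Gnl3, chr14:31019153-31019272, minus strand: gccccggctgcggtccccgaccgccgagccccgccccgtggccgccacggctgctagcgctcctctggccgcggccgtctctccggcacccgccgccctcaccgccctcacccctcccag
Nop2, chr6:125131763-125131882, plus strand: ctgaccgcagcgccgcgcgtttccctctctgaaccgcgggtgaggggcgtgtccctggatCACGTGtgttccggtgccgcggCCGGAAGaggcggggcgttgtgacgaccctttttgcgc
Utp18, chr11:93885767-93885886, minus strand: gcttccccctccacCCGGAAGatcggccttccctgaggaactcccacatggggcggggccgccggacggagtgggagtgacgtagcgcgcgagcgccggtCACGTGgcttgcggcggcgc
Ltv1 held the ETS core at 2 places. The match before Nhp2 lies nearer to the RefSeq start than the stretch printed. Neither motif was found in the searched bases of Nop10, Nop56 or Gnl3.

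To ask whether ribosome biogenesis genes differed with MAC-1 among regenerating HSCs, 4wk MAC-1+ and 4wk MAC-1- samples were compared. The genes were lower in 4wk MAC-1+ HSCs almost throughout. The fitted level was lower for 46 of 49 genes (93.9%), against 47.3% of all genes tested, and the median log2 fold change was -0.78, against 0.07 over all genes tested. By edgeR's quasi-likelihood test with Benjamini-Hochberg adjustment over all genes tested, 6 of 49 passed an adjusted p of 0.1 as lower, where 2.06% of all genes tested did, and 0 passed as higher, where 1.19% did. At an unadjusted p under 0.05 there were 10 genes, all lower (20.4%, against 13.4% of all genes tested). In 20 genes every 4wk MAC-1+ sample was below every 4wk MAC-1- sample, against 11.5% of all genes tested, and the opposite held for 0 genes, against 10.2% of all genes tested. DESeq2 passed 8 genes and limma-voom 7, all lower, where 2.49% and 3.44% of all genes fitted passed as lower. Limma-voom was fitted to the same 13661 genes as edgeR, but DESeq2 to 31871 genes, those with any count. The DESeq2 shares here and below therefore include genes under the filter on low counts, which all 49 genes passed. Leaving out 1 library moved the count from 6 to 2 without 4wk MAC-1- replicate 1 and to 3 without 4wk MAC-1- replicate 2, 4wk MAC-1- replicate 3 or 4wk MAC-1+ replicate 2. The scaling of the libraries moved the median of all genes from 0.07 to 0.22 with total counts alone and to 0.14 with DESeq2 size factors. In limma-voom, which used the same TMM scaling as the main fit, it was -0.09. The median of the 49 genes stayed between -0.99 and -0.65, and 44 to 48 genes were lower in every alternative fit, those without 1 library included.

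**Figure D3:**
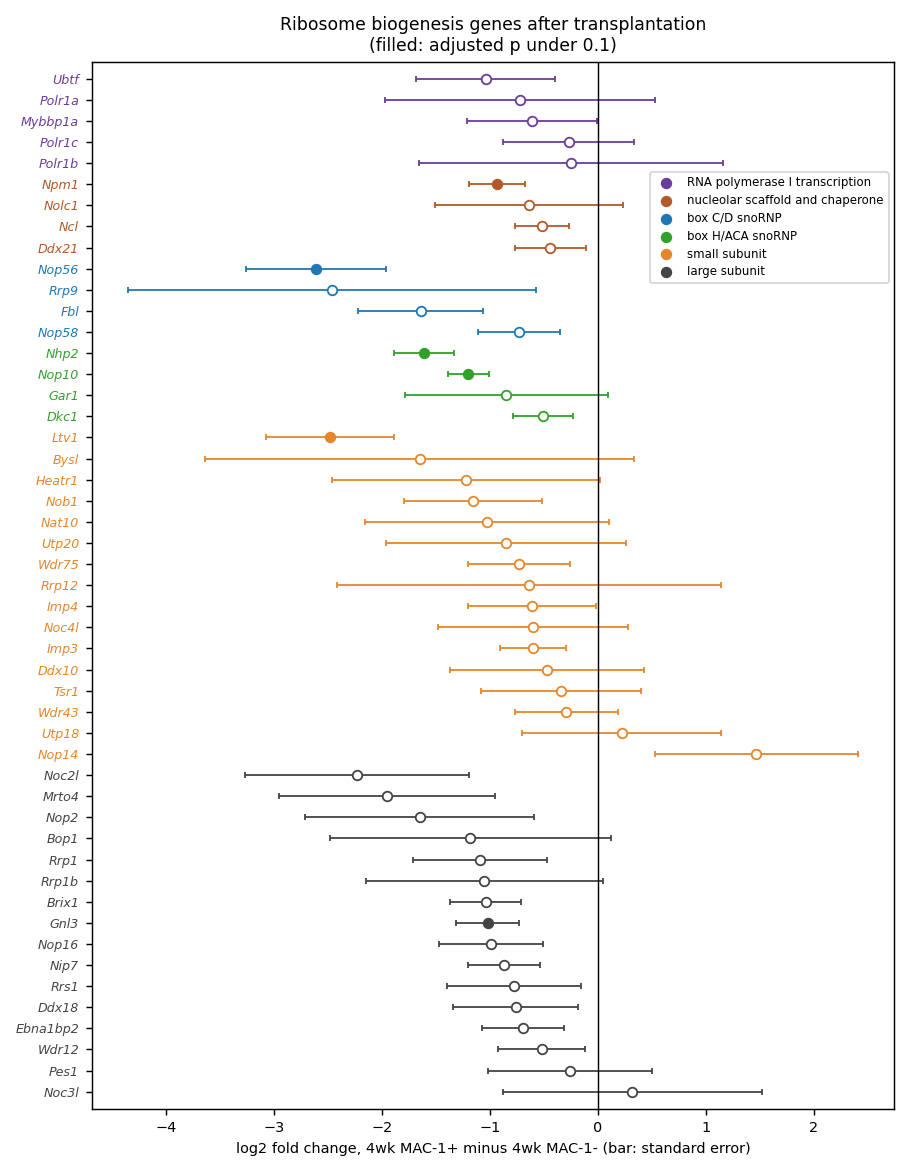
Log2 fold change of each of the 49 genes between 4wk MAC-1+ and 4wk MAC-1- samples from the edgeR fit, with bars of 1 standard error, grouped and coloured by role and filled where the adjusted p was under 0.1. The points of 46 genes lie left of 0, and the 6 filled points are Npm1, Nop56, Nhp2, Nop10, Ltv1 and Gnl3.

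The box H/ACA proteins were the group with the firmest differences. All 4 were lower in 4wk MAC-1+ HSCs, their median being -1.03 on the log2 scale, and 2 passed the test. Nop10, a small core protein of the particle that pseudouridylates rRNA and of telomerase, had 2831, 2921 and 2248 CPM in 4wk MAC-1-, 1459, 1858, 1380 and 1471 CPM in 4wk MAC-1low, and 1468, 1130 and 877 CPM in 4wk MAC-1+ samples. Its steady-state samples had 2733, 2412 and 2204 CPM (MAC-1-) and 2303, 1711 and 1920 CPM (MAC-1low). The highest 4wk MAC-1+ sample was thus below the lowest 4wk MAC-1- sample and below every steady-state sample, and it reached into the range of 4wk MAC-1low. Nop10 fell by 1.2 on the log2 scale between 4wk MAC-1- and 4wk MAC-1+ (SE 0.19, edgeR adjusted p = 0.00376). Nhp2, which binds the same particle next to Nop10, had 433, 517 and 665 CPM in 4wk MAC-1-, 279.6, 336, 348 and 394 CPM in 4wk MAC-1low, and 211, 111 and 208 CPM in 4wk MAC-1+ samples. At steady state it had 456, 525 and 449.8 CPM (MAC-1-) and 309, 634 and 417 CPM (MAC-1low), so that all 3 4wk MAC-1+ samples were the lowest of the 16. Nhp2 fell by 1.61 (SE 0.28, edgeR adjusted p = 0.0088). Nop10 and Nhp2 passed the threshold in all 24 alternative fits of this comparison. Dkc1, the pseudouridine synthase of the particle, did not overlap between these populations (-0.51, SE 0.28, edgeR adjusted p = 0.46), and Gar1 read -0.85 (SE 0.94). The exons of Nhp2 share 44 bases with Rmnd5b on the other strand, and the libraries do not mark strand, so reads in these bases could come from either gene.

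The box C/D proteins had the lowest median of the 6 role groups, -2.05, with 4 of 4 genes lower and 1 past the test. Nop56, a scaffold protein of the methylation particle, had 99.99, 149 and 109 CPM in 4wk MAC-1-, 30.8, 126, 52.1 and 56.1 CPM in 4wk MAC-1low, and 25.2, 3.58 and 29.6 CPM in 4wk MAC-1+ samples. In the steady-state samples it had 137, 141 and 122 CPM (MAC-1-) and 70.1, 151 and 84.4 CPM (MAC-1low). Every 4wk MAC-1+ sample was below all 13 others. Nop56 fell by 2.61 (SE 0.65, edgeR adjusted p = 0.055), a call lost without 4wk MAC-1+ replicate 1 or 2 or any of the 4wk MAC-1- replicates, with adjusted p from 0.0441 to 0.173 over the fits that left out 1 library. Fbl (fibrillarin), the methyltransferase of the particle, had 34.8, 44.8 and 34.4 CPM in 4wk MAC-1-, 26.3, 36.7, 43.0 and 20.1 CPM in 4wk MAC-1low, and 10.5, 5.402 and 20.8 CPM in 4wk MAC-1+ samples. Its steady-state levels were 21.9, 13.4 and 17.9 CPM (MAC-1-) and 25.8, 27.6 and 36.0 CPM (MAC-1low). The 4wk MAC-1+ samples overlapped SS MAC-1- but not 4wk MAC-1-, and the difference from 4wk MAC-1- was -1.64 (SE 0.58, edgeR adjusted p = 0.214, past the threshold in DESeq2 alone). Nop58, the partner scaffold of Nop56, had 297.5, 299.8 and 375 CPM in 4wk MAC-1-, 299, 249.5, 222 and 249 CPM in 4wk MAC-1low, and 295, 171 and 119.7 CPM in 4wk MAC-1+ samples. Its steady-state samples had 188, 256 and 96.0 CPM (MAC-1-) and 127, 287 and 169 CPM (MAC-1low), all below 4wk MAC-1-. The 4wk MAC-1+ replicate 1 was within 3 CPM of the lowest 4wk MAC-1- sample, and the difference did not pass the test (-0.73, SE 0.38, edgeR adjusted p = 0.423). Rrp9, a protein specific to the particle that guides the first cuts of the precursor, was read at means of 1.25 to 8.14 CPM and gave -2.46 with an SE of 1.89. Several snoRNA genes lie inside Nop56 and Nop58, and 5 bases of the Nop56 exons are shared with Idh3b on the other strand.

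Among nucleolar scaffold proteins and chaperones 4 of 4 genes were lower, with a median of -0.58 and 1 past the test. Npm1 (nucleophosmin), an abundant chaperone of the nucleolus, had 5219, 4987 and 4484 CPM in 4wk MAC-1-, 4420, 2687, 3339 and 4108 CPM in 4wk MAC-1low, and 3705, 1763 and 2247 CPM in 4wk MAC-1+ samples. At steady state it had 1906, 2392 and 3155 CPM (MAC-1-) and 2554, 1712 and 2027 CPM (MAC-1low). The 4wk MAC-1- samples were above all others, and 4wk MAC-1+ replicates 2 and 3 lay within the steady-state range. Npm1 fell by 0.93 (SE 0.26, edgeR adjusted p = 0.094). The call was kept without SS MAC-1- replicate 1 or 3, 4wk MAC-1+ replicate 1 or 4wk MAC-1low replicate 1 or 2, and was lost without any of the 11 other libraries, with adjusted p from 0.0159 to 0.34. Npm1 has processed pseudogenes whose reads the counting could have split, so its level is uncertain. Ncl (nucleolin), which binds nascent rRNA, had 629, 642 and 515 CPM in 4wk MAC-1-, 519, 456, 513 and 564 CPM in 4wk MAC-1low, and 456, 338 and 454 CPM in 4wk MAC-1+ samples. Its steady-state levels were 273.5, 401 and 355 CPM (MAC-1-) and 261, 543 and 563 CPM (MAC-1low). The 4wk MAC-1+ samples did not overlap 4wk MAC-1- and lay inside the steady-state range, and the difference from 4wk MAC-1- did not pass the test (-0.52, SE 0.25, edgeR adjusted p = 0.387). Nolc1, a snoRNP chaperone, and Ddx21, a nucleolar helicase, read -0.64 (SE 0.87) and -0.44 (SE 0.33).

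The 5 genes of RNA polymerase I transcription were all lower without a call, with a median of -0.61. Ubtf, which loads the polymerase onto rRNA genes, had 37.7, 47.6 and 36.5 CPM in 4wk MAC-1-, 45.7, 35.9, 18.6 and 18.3 CPM in 4wk MAC-1low, and 26.5, 10.7 and 21.95 CPM in 4wk MAC-1+ samples. The steady-state values were 48.5, 46.7 and 7.90 CPM (MAC-1-) and 34.3, 47.2 and 40.7 CPM (MAC-1low). Its 4wk MAC-1+ and 4wk MAC-1- samples did not overlap, but the difference did not pass the test (-1.04, SE 0.64, edgeR adjusted p = 0.526). Polr1c, a subunit shared by RNA polymerases I and III, had 57.3, 43.3 and 62.8 CPM in 4wk MAC-1-, 38.7, 41.1, 65.6 and 12.9 CPM in 4wk MAC-1low, and 35.2, 36.0 and 64.4 CPM in 4wk MAC-1+ samples. In steady-state samples it had 89.1, 22.3 and 62.1 CPM (MAC-1-) and 64.6, 24.1 and 73.2 CPM (MAC-1low). All 5 populations overlapped, and the log2 difference was -0.27 (SE 0.61). Polr1a and Polr1b, the catalytic core subunits, were read at means of 2.48 to 31.3 CPM and gave -0.72 (SE 1.25) and -0.25 (SE 1.41), a spread in which a 2-fold difference could not be seen. Mybbp1a, a nucleolar MYB-binding protein that has been tied to rRNA synthesis, read -0.61 (SE 0.60).

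Small-subunit factors were lower in 14 of 16 genes with a median of -0.62, and 1 passed the test. Ltv1, which accompanies the small-subunit precursor out of the nucleus, had 101, 66.1 and 71.2 CPM in 4wk MAC-1-, 72.2, 36.4, 57.7 and 41.4 CPM in 4wk MAC-1low, and 10.8, 20.04 and 12.02 CPM in 4wk MAC-1+ samples. Its steady-state samples had 105, 21.9 and 69.0 CPM (MAC-1-) and 64.7, 23.8 and 80.3 CPM (MAC-1low). The 4wk MAC-1+ samples were the lowest 3 of the 16. Ltv1 fell by 2.48 (SE 0.59, edgeR adjusted p = 0.0439), a call lost without 4wk MAC-1+ replicate 1 or 3 or 4wk MAC-1- replicate 1, where the adjusted p reached 0.17. Heatr1, a large scaffold of the small-subunit processome, had 29.6, 22.3 and 46.7 CPM in 4wk MAC-1-, 19.98, 7.58, 29.9 and 5.66 CPM in 4wk MAC-1low, and 21.6, 6.97 and 13.7 CPM in 4wk MAC-1+ samples. It had 21.1, 19.0 and 0.359 CPM in SS MAC-1- and 15.1, 7.78 and 0.361 CPM in SS MAC-1low samples. Its 4wk MAC-1+ samples lay just below 4wk MAC-1- without overlap (-1.22, SE 1.24), and 2 steady-state samples were far below the rest.

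Utp18 and Wdr43, also of the small-subunit processome, showed no order by MAC-1. Utp18 had 144, 86.7 and 98.5 CPM in 4wk MAC-1-, 178, 64.3, 59.4 and 105 CPM in 4wk MAC-1low, and 243, 33.3 and 109 CPM in 4wk MAC-1+ samples, and at steady state 120.1, 2.78 and 162 CPM (MAC-1-) and 128, 48.8 and 57.5 CPM (MAC-1low). Its difference was 0.22 (SE 0.92) and turned to -0.62 without 4wk MAC-1+ replicate 1, the highest of all 16 samples, to -0.09 in limma-voom and to -0.20 with a replicate block. Wdr43 had 97.9, 65.9 and 105 CPM in 4wk MAC-1-, 104, 109, 72.6 and 79.5 CPM in 4wk MAC-1low, and 49.1, 99.4 and 70.3 CPM in 4wk MAC-1+ samples, and at steady state 270.3, 66.5 and 104 CPM (MAC-1-) and 160.3, 119.5 and 58.5 CPM (MAC-1low). It overlapped in all populations (-0.29, SE 0.48). Nop14 and Utp18 were the 2 small-subunit genes with a higher fitted level, and Nop14 read 1.47 (SE 0.94, edgeR adjusted p = 0.556). Nob1, the nuclease that makes the final cut of small-subunit rRNA, and Imp3, a processome protein, were without overlap at -1.16 (SE 0.64) and -0.60 (SE 0.31). The remaining 9 read from -1.65 for Bysl to -0.34 for Tsr1. Of these, Tsr1 shares 32.3% of its exon bases with Srr and Bysl 9.37% with Ccnd3, each on the other strand.

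Large-subunit factors were lower in 15 of 16 genes with a median of -1.01, again with 1 past the test. Gnl3 (nucleostemin), a nucleolar GTPase known from stem and dividing cells, had 306, 252 and 362 CPM in 4wk MAC-1-, 328, 249, 250.4 and 231 CPM in 4wk MAC-1low, and 196, 104 and 155 CPM in 4wk MAC-1+ samples. Its steady-state levels were 199, 186 and 303.5 CPM (MAC-1-) and 316, 187 and 189 CPM (MAC-1low). The 4wk MAC-1+ samples lay below all other 4wk samples, and replicate 1 reached into the steady-state range. Gnl3 fell by 1.02 (SE 0.29, edgeR adjusted p = 0.0972). The call was kept without SS MAC-1low replicate 1, SS MAC-1- replicate 3 or 4wk MAC-1+ replicate 1 and was lost without any of the 13 other libraries, with adjusted p from 0.0738 to 0.348. Brix1, needed for processing of large-subunit rRNA, had 731, 783 and 757 CPM in 4wk MAC-1-, 436, 350.2, 637 and 539 CPM in 4wk MAC-1low, and 589.6, 299 and 219.5 CPM in 4wk MAC-1+ samples. At steady state it had 625, 639 and 331 CPM (MAC-1-) and 466, 476 and 471 CPM (MAC-1low). The 4wk MAC-1- samples were the highest 3 of the 16. The difference missed the threshold (-1.04, SE 0.33, edgeR adjusted p = 0.148), and it passed in DESeq2, in limma-voom, with either other filter on low counts and without 4wk MAC-1+ replicate 1.

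Mrto4, Nop2 and Noc2l had larger folds on fewer counts and did not pass the test. Mrto4, which takes part in assembling the ribosomal stalk, had 51.3, 55.9 and 59.7 CPM in 4wk MAC-1-, 33.8, 39.3, 39.0 and 42.7 CPM in 4wk MAC-1low, and 35.3, 0.188 and 7.79 CPM in 4wk MAC-1+ samples, and at steady state 78.2, 25.4 and 108 CPM (MAC-1-) and 25.6, 28.9 and 53.7 CPM (MAC-1low). Its 4wk MAC-1+ replicates 2 and 3 were the lowest of the 16, and the difference was -1.95 (SE 1.00, edgeR adjusted p = 0.42) and moved to -3.79 without 4wk MAC-1+ replicate 1. Nop2, an rRNA methyltransferase, had 18.01, 12.4 and 28.9 CPM in 4wk MAC-1-, 18.02, 14.3, 8.59 and 1.84 CPM in 4wk MAC-1low, and 4.56, 4.96 and 9.30 CPM in 4wk MAC-1+ samples, and at steady state 3.15, 10.4 and 2.05 CPM (MAC-1-) and 9.44, 16.2 and 2.37 CPM (MAC-1low). It was without overlap between 4wk MAC-1- and 4wk MAC-1+ (-1.65, SE 1.06). Noc2l, a partner of Noc3l in large-subunit transport, had 16.7, 38.3 and 7.79 CPM in 4wk MAC-1-, 13.9, 26.7, 19.7 and 22.5 CPM in 4wk MAC-1low, and 6.88, 1.26 and 5.26 CPM in 4wk MAC-1+ samples, and at steady state 11, 27.5 and 1.13 CPM (MAC-1-) and 6.89, 13.2 and 18.7 CPM (MAC-1low). Its populations were also without overlap, by less than 1 CPM (-2.23, SE 1.04, edgeR adjusted p = 0.372). Noc3l was the large-subunit gene with a higher fitted level (0.32, SE 1.2). Bop1, Pes1 and Wdr12, which form a complex in large-subunit rRNA processing, read -1.18 (SE 1.30), -0.26 (SE 0.76) and -0.52 (SE 0.40).

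**Figure D4:**
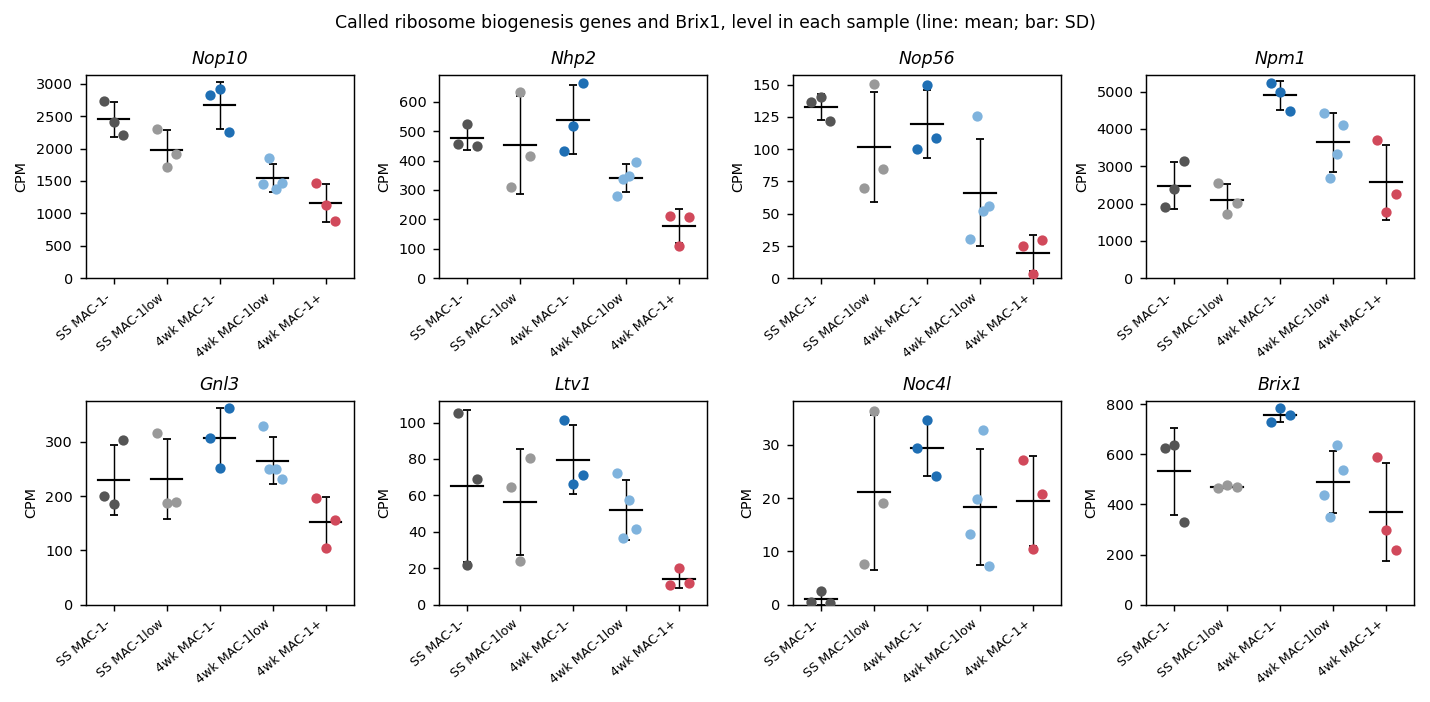
CPM per sample of the 7 genes past an adjusted p of 0.1 in any comparison of 2 populations, and of Brix1 (points: samples, lines: means, bars: SD, each axis from 0). Nop10, Nhp2, Nop56, Gnl3 and Ltv1 are lowest by mean in 4wk MAC-1+, Npm1 and Brix1 are highest in 4wk MAC-1-, and Noc4l is between 0.308 and 2.57 CPM in SS MAC-1-.

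The pathway was also read through a second list of 108 other ribosome biogenesis genes, of which 107 were tested. In 4wk MAC-1+ against 4wk MAC-1-, 71 of 107 (66.4%, against 47.3% of all genes tested) were lower with a median of -0.35. By edgeR 6 passed as lower, where 2.06% of all genes tested did, and 0 as higher, while 16 (15%, against 13.4% of all genes tested) were under an unadjusted p of 0.05. Of those that passed, the 5 with the largest change were Rpf2, of the particle that brings in the smallest rRNA of the large subunit (-1.52, SE 0.39, adjusted p = 0.0643), Exosc8, of the RNA exosome (-1.34, SE 0.23, adjusted p = 0.00827), Rrp15 (-1.22, SE 0.34, adjusted p = 0.0927), Rsl1d1 (-1.10, SE 0.28, adjusted p = 0.0653) and Nhp2l1, a protein of box C/D particles and of the spliceosome (-0.91, SE 0.17, adjusted p = 0.0123). In 20 of the 107 every 4wk MAC-1+ sample was below every 4wk MAC-1- sample, against 11.5% of all genes tested. The opposite held for 5, against 10.2% of all genes tested. The median of the 107 genes thus lay on the same side of 0 as that of the 49 and was smaller, with 36 genes higher.

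Proliferation genes moved with this comparison. Their 18 members summed to 2841 to 3513 CPM in 4wk MAC-1- and 1560 to 2165 CPM in 4wk MAC-1+, and 16 of 18 were lower with a median of -0.81. The 2 that passed the edgeR test, named after their values were seen, were Tyms (means of 286 and 76.8 CPM), which makes thymidylate for DNA, and the replication helicase subunit Mcm3 (128 and 49.6 CPM). Among the MYC family, Myc had 54.4, 87.9 and 92.0 CPM in 4wk MAC-1- and 45.4, 65.3 and 90.4 CPM in 4wk MAC-1+ samples, which overlapped (-0.22, SE 0.31, edgeR adjusted p = 0.87). Mycn was higher in each 4wk MAC-1+ sample (152, 246 and 129 CPM) than in each 4wk MAC-1- sample (65.7, 66.4 and 79.8 CPM) but missed the threshold (1.31, SE 0.38, edgeR adjusted p = 0.103). Mki67, made in cycling cells, overlapped (-0.56, SE 0.41, edgeR adjusted p = 0.639). The part of cycling cells in the levels of the 49 genes was not tested.

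Next, the MAC-1low population was set between the other two 4wk populations. These comparisons share samples with the one above and with each other, so their values are given side by side. Between 4wk MAC-1low and 4wk MAC-1- 43 of 49 genes were lower (87.8%, against 47.6% of all genes tested), with a median of -0.46 against 0.05. By edgeR 0 of 49 passed the test, where 0.278% of all genes tested did, with 3 genes (Nop10, Nhp2 and Nip7) under an unadjusted p of 0.05 (6.12%, against 7.25% of all genes tested). DESeq2 and limma-voom each passed 1, where 1.75% and 2.26% of all genes fitted passed. The gene passed there was Nop10, whose 4 MAC-1low samples were all below the 3 MAC-1- samples (-0.79, SE 0.17, edgeR adjusted p = 0.105). In 8 genes all MAC-1low samples were below all MAC-1- samples, against 5.53% of all genes tested, and in 1, Noc3l, above, against 5.23%. Nhp2 read -0.66 (SE 0.26), Nop56 -0.85 (SE 0.57), Npm1 -0.43 (SE 0.24), Gnl3 -0.21 (SE 0.27) and Ltv1 -0.62 (SE 0.52).

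Between 4wk MAC-1+ and 4wk MAC-1low 36 of 49 genes were lower with a median of -0.41 (-0.00 over all genes tested). By edgeR 0 genes passed, as for all genes tested (0.0%), and 8 were under an unadjusted p of 0.05 (16.3%, against 6.85% of all genes tested). DESeq2 passed 3 (Ltv1, Nhp2 and Fbl), where 1.42% of all genes fitted passed, and limma-voom 0. Ltv1 read -1.86 (SE 0.56), Nop56 -1.77 (SE 0.60), Nhp2 -0.94 (SE 0.27), Fbl -1.37 (SE 0.55), Gnl3 -0.80 (SE 0.27), Npm1 -0.50 (SE 0.24) and Nop10 -0.41 (SE 0.17). For Nop10 the larger fitted difference was at the step from MAC-1- to MAC-1low, and for Ltv1, Nop56, Fbl and Gnl3 it was at the step from MAC-1low to MAC-1+. Whether the steps differed was not tested.

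At steady state the MAC-1low and MAC-1- populations showed no shift of the 49 genes. Their median difference was -0.03 on the log2 scale, with 26 genes lower (53.1%, against 49.7% of all genes tested) and 23 higher in MAC-1low. By edgeR 0 genes passed, where 0.0146% of all genes tested did, with 1 gene under an unadjusted p of 0.05 (2.04%, against 9.36% of all genes tested). DESeq2 passed 1, where 2.94% of all genes fitted passed, and limma-voom 0. That gene was Noc4l, a partner of Nop14 in small-subunit assembly. It had 0.44, 2.57 and 0.308 CPM in SS MAC-1-, 7.67, 36.4 and 19.1 CPM in SS MAC-1low, 29.4, 34.7 and 24.2 CPM in 4wk MAC-1-, 13.3, 19.9, 32.8 and 7.31 CPM in 4wk MAC-1low, and 27.1, 10.4 and 20.8 CPM in 4wk MAC-1+ samples. The SS MAC-1- samples held 6, 49 and 6 counts and were below all 13 others. The difference between SS MAC-1low and SS MAC-1- was 4.24 (SE 1.00, edgeR adjusted p = 0.324). An edgeR interaction term asked whether the MAC-1low against MAC-1- difference was the same at 4 weeks as at steady state. Its median was -0.41 (0.03 over all genes tested), with 36 of 49 genes below 0, and 0 genes passed, where 0.0586% of all genes tested did. Noc4l (-4.92, SE 1.25, adjusted p = 0.301) was the 1 gene under an unadjusted p of 0.05 (2.04%, against 8.73% of all genes tested) and the 1 gene passed by DESeq2, where 2.36% of all genes fitted passed, and limma-voom passed 0.

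Transplantation was then followed within each MAC-1 population, again in comparisons that share samples with those above. In 4wk MAC-1- against SS MAC-1- HSCs 33 of 49 genes were higher, with a median of 0.25 against -0.03 over all genes tested. The share lower was 32.7%, against 51.3% of all genes tested. At an unadjusted p under 0.05 there were 4 genes (8.16%, against 10.4% of all genes tested). Noc4l rose by 4.72 on the log2 scale (SE 1.03, edgeR adjusted p = 0.0927) and was the 1 gene past the test as higher, where 0.212% of all genes tested were. None of the 49 passed as lower by edgeR, where 0.22% did. The Noc4l call held in 2 of the 16 fits without 1 library, those without SS MAC-1- replicate 2 or SS MAC-1low replicate 1, with adjusted p from 0.0541 to 0.273. Of the role groups, box C/D had 3 of 4 genes higher with a median of 0.97 and the scaffold group 4 of 4 with a median of 0.89, and neither held a gene past the edgeR test. Npm1 read 0.98 (SE 0.26, edgeR adjusted p = 0.205) and Ncl 0.79 (SE 0.25, edgeR adjusted p = 0.307), each with all 4wk MAC-1- samples above all SS MAC-1- samples. DESeq2 passed both and Noc4l, where 3.38% of all genes fitted passed, and limma-voom passed Npm1 alone, where 0.608% did. Nop58 (0.85, SE 0.38) and Fbl (1.10, SE 0.57) were also without overlap, while Nop10 (0.12, SE 0.18), Nhp2 (0.17, SE 0.28) and Nop56 (-0.16, SE 0.61) were near 0. In all, 8 of the 49 genes had every 4wk MAC-1- sample above every SS MAC-1- sample, against 1262 of all 13661 genes tested. The opposite held for 0 of the 49, against 1011 of all genes tested. Of 18 proliferation genes 18 had a higher fitted level, against 6577 of all 13661 genes tested, with sums of 1479 to 1737 CPM in SS MAC-1-. Of these 18, 0 passed the edgeR test (smallest adjusted p = 0.206). At an unadjusted p under 0.05 there were 12 of them (66.7%, against 10.4% of all genes tested).

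Between 4wk MAC-1low and SS MAC-1low the 49 genes were close to level, with 30 lower (61.2%, against 50.9% of all genes tested). Their median was -0.12 (-0.02 over all genes tested), and 0 passed by edgeR, DESeq2 or limma-voom. Of all genes tested 0.0439% passed edgeR, and 2 of the 49 were under an unadjusted p of 0.05 (4.08%, against 8.89% of all genes tested). These were Nop14, lower at 4 weeks (-1.89, SE 0.87), and Npm1, higher at 4 weeks (0.79, SE 0.25, edgeR adjusted p = 0.399) without overlap of the samples.

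The 4wk MAC-1+ HSCs, for which no steady-state counterpart was read, were also compared with SS MAC-1- HSCs. The snoRNP genes Nop10, Nhp2 and Nop56 and the small-subunit gene Ltv1 fell, and the other 5 snoRNP genes did not pass the test. In all, 37 of 49 were lower with a median of -0.54 (0.02 over all genes tested). By edgeR 4 genes passed as lower, where 1.59% of all genes tested did, and 1 as higher, where 0.776% did. The genes that fell were Nop56 (-2.77, SE 0.65, adjusted p = 0.0595), Ltv1 (-2.19, SE 0.58, adjusted p = 0.0882), Nhp2 (-1.43, SE 0.28, adjusted p = 0.0248) and Nop10 (-1.08, SE 0.19, adjusted p = 0.0117). Noc4l rose by 4.12 (SE 1.00, edgeR adjusted p = 0.0659) against its low SS MAC-1- samples. The 4 scaffold genes had a median of 0.16, with Npm1 at 0.05 (SE 0.26) and Ncl at 0.28 (SE 0.25). The count of 5 dropped to 2 without SS MAC-1- replicate 1 or 4wk MAC-1+ replicate 1 and to 3 without SS MAC-1- replicate 3 or 4wk MAC-1- replicate 2. Nop10 and Nhp2 kept their call in all 16 fits without 1 library. Nop56 lost it without SS MAC-1- replicate 1 or 2 or 4wk MAC-1+ replicate 1 (adjusted p from 0.0428 to 0.123 over the 16 fits). Noc4l lost it without SS MAC-1- replicate 1 or 3, 4wk MAC-1+ replicate 1 or 3 or 4wk MAC-1- replicate 2 (0.0316 to 0.17). Ltv1 kept it only without SS MAC-1low replicate 2, SS MAC-1- replicate 2 or 4wk MAC-1low replicate 2. In limma-voom Nop10 and Nhp2 alone passed.

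**Figure D5:**
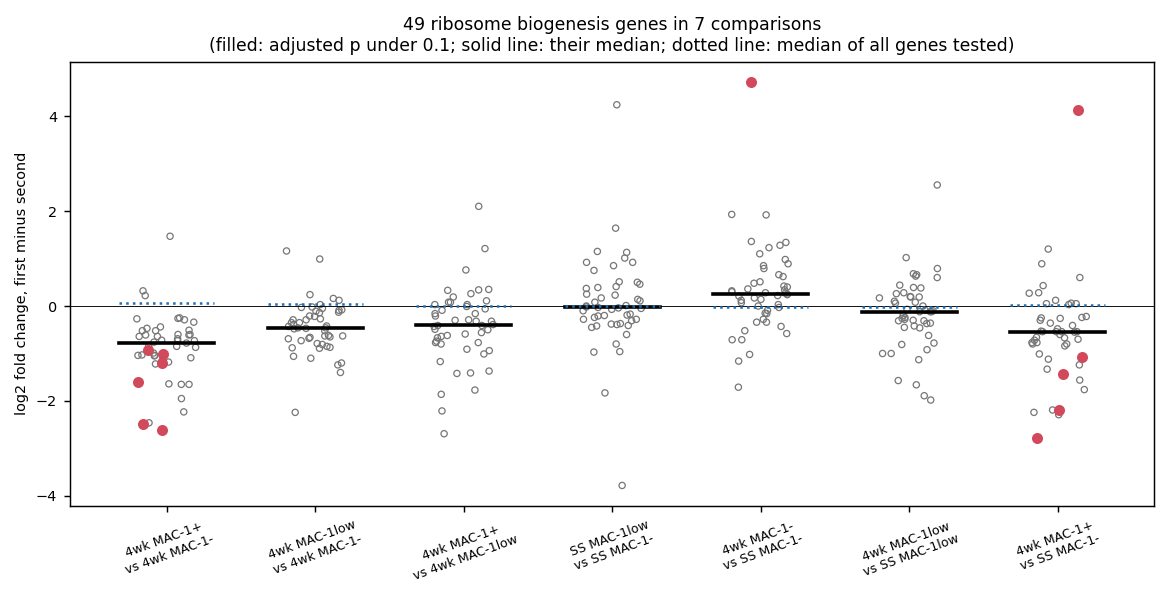
Log2 fold changes of the 49 genes in 7 comparisons (points: genes, filled where the adjusted p was under 0.1, solid line: median of the 49, dotted line: median of all genes tested). The medians are -0.78, -0.46 and -0.41 among 4wk populations, -0.03 at steady state, and 0.25, -0.12 and -0.54 from steady state to 4 weeks.

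A joint edgeR test of any difference among the 5 populations passed Nop10 (adjusted p = 0.0155), Nhp2 (adjusted p = 0.0509) and Npm1 (adjusted p = 0.0811), 3 of 49 genes where 2.22% of all genes tested passed. The count was 1 without 4wk MAC-1+ replicate 2 or 3 or 4wk MAC-1- replicate 2 or 3. In mean CPM, Nop10 ordered the populations as 4wk MAC-1- (2667 ± 365, SD, n = 3), SS MAC-1- (2450 ± 266, n = 3), SS MAC-1low (1978 ± 300, n = 3), 4wk MAC-1low (1542 ± 215, n = 4) and 4wk MAC-1+ (1159 ± 296, n = 3). The order of Nhp2 was the same, at 538 ± 117, 477 ± 41.7, 453 ± 166, 340 ± 47.1 and 177 ± 57.0 CPM. Npm1 was ordered differently below 4wk MAC-1- (4897 ± 376), with 4wk MAC-1low (3638 ± 780) above 4wk MAC-1+ (2572 ± 1011), SS MAC-1- (2484 ± 630) and SS MAC-1low (2098 ± 425). Samples of neighbouring populations in these orders overlapped, except between 4wk MAC-1low and 4wk MAC-1+ for Nhp2 and between 4wk MAC-1- and 4wk MAC-1low for Npm1, where the nearest samples had 4484 and 4420 CPM.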

How the data were processed

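HSCs were sorted from bone marrow, as bulk samples of small cell number, and their RNA was amplified with SMART-Seq v4 and made into libraries with Nextera XT, which mark neither strand nor molecules. The authors deposited 1 merged table of raw read counts per gene, made by alignment with STAR in the RNA-seq pipeline of nf-core, per the study's methods. Not given in the sources used here were the counting program, the genome build and the annotation. DESeq2, named in the submitters' processing notes, was used by the authors for their own tests. Raw counts of all 16 samples were fitted here with edgeR 4.0.16 (limma 3.58.1, R 4.3.3) as 1 mean per population, with TMM scaling and the default filter on low counts, by robust quasi-likelihood F-tests with Benjamini-Hochberg adjustment over 13661 genes and a threshold of 0.1. The common biological coefficient of variation was 1.13. CPM were scaled by TMM. Deviations were read on log2(CPM + 1) for display. The fitting script was tested on simulated data. DESeq2 1.42.0 and limma-voom were alternatives, with other scalings, filters, samples and thresholds. Figures were drawn with matplotlib 3.10.9.

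The 49 genes, the lists and the tests were chosen with earlier results of these data known. Any of the 49 may be named. Values in every sample are given for genes past the test in any comparison of 2 populations, the 2 most abundant genes of each of 6 roles, and the 8 largest fold changes among genes whose 4wk MAC-1+ and 4wk MAC-1- samples did not overlap, and for the second list the 5 largest passing changes. Exon lengths, overlaps and starts came from GENCODE M21 (GRCm38), matched here by identifier (98.16% of identifiers and 49 of 49 genes). Promoters came from RefSeq (GRCm38.p6). The labels do not state a pairing, and correlations of deviations between same-numbered samples were at most 0.0397. Deposited sample names number the 4wk samples in an order that the replicate numbers do not follow. Neighbours in that order were 4wk MAC-1low replicate 3 and 4wk MAC-1- replicate 2 (0.023), and 4wk MAC-1low replicate 4 and 4wk MAC-1- replicate 3 (0.0201). Together with the pair of replicates 1 (0.0397), these were the highest values between 4wk MAC-1low and 4wk MAC-1- samples. Between 4wk MAC-1+ and 4wk MAC-1- the 3 same-numbered pairs read 0.0177 to 0.0331 and the other pairs at most 0.00164. The check by replicate number therefore cannot show that samples were unpaired, and they were fitted as unpaired. A pairing by the order of the deposited names was not fitted. No sample or column was left out. Every protocol label, those of untreated SS samples included, carries the same transplantation text, and groups were taken from titles.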

Additional observations from a re-analysis of the deposited data

Results flagged for a closer look

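In the 4wk MAC-1low population, the group with 4 samples, 4 of the 49 genes had 1 sample far from the other 3, with a gap over the whole range above Dixon's 95% critical value for 4 samples. Chance flags about 1 in 20 groups of values when these are normally distributed, and the gap was read here on CPM without a log scale. Only the 49 genes were searched, and no share over all genes tested was taken. Whether 4 of 49 is more than chance was therefore not tested. Wdr75, a protein of the small-subunit processome, had 36.1 CPM in 1 sample and 108 to 111 CPM in the others (gap over range 0.953). Imp3 had 117 CPM in 1 sample and 84.6 to 88.0 CPM in the others (0.894). The acetyltransferase gene Nat10 had 15.8 CPM in 1 sample and 0.862 to 1.49 CPM in the others (0.958). Ddx18, a helicase of large-subunit assembly, had 81.5 CPM in 1 sample and 38.9 to 43.8 CPM in the others (0.886). None of these genes passed the edgeR test in a comparison of 2 populations.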

How the results depend on the processing

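In 4wk MAC-1+ against 4wk MAC-1-, the count of 6 genes became 3 in a fit of only the groups compared (68 genes passed as higher and 86 as lower among 11678 tested) and 3 at an adjusted p of 0.05, and other settings gave 4 to 8. Without 1 library it ran from 2 to 6. The count in 4wk MAC-1low against 4wk MAC-1- was 1 in DESeq2, in limma-voom, with no filter and with a stricter filter, and 0 to 1 without 1 library (1 without 4wk MAC-1+ replicate 1 or 3). In 4wk MAC-1+ against 4wk MAC-1low it was 3 in DESeq2 and 0 in every fit without 1 library. In SS MAC-1low against SS MAC-1- it was 1 in DESeq2 and 0 to 1 without 1 library (1 without SS MAC-1- replicate 2). In 4wk MAC-1- against SS MAC-1- it was 3 in DESeq2, 0 with no filter, in the groups compared or at an adjusted p of 0.05, and 0 to 1 without 1 library. In 4wk MAC-1+ against SS MAC-1- it was 2 in limma-voom, 3 with no filter, 0 in the groups compared, 2 at an adjusted p of 0.05, and 2 to 5 without 1 library. The interaction gave 1 in DESeq2 and the joint test 8 in DESeq2, 6 with no filter, 1 at an adjusted p of 0.05 and 1 to 3 without 1 library. With a replicate block, which labels do not support as a pairing, the counts were 5 in 4wk MAC-1+ against 4wk MAC-1-, 0 in 4wk MAC-1- against SS MAC-1- and 3 in 4wk MAC-1+ against SS MAC-1-, and Utp18 read -0.20 in place of 0.22. Utp18 also turned to -0.09 in limma-voom and ran from -0.62 to 0.71 without 1 library (4wk MAC-1+ replicate 1 and replicate 2). The cause of these changes was not tested. Genes below 30 CPM were limited by replicate spread, and only folds well above their SE could pass.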
